A study of Mus musculus with 20 samples.

Results

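The 10 genes described here build, shape and clear mitochondria, and were followed in the calf muscle of mice given the copper chelator tetrathiomolybdate (TM), the antioxidant N-acetylcysteine (NAC), or both. The genes, taken by symbol from the 31618 genes of the expression table, were *Ppargc1a*, *Ppargc1b*, *Tfam*, *Nrf1*, *Esrra*, *Mfn1*, *Mfn2*, *Opa1*, *Dnm1l* and *Pink1*, and all 10 were found. Poly(A) RNA of the gastrocnemius was sequenced from male C57BL/6N mice in 4 groups of 5 libraries: TM+NAC, TM and NAC, each labelled 28 days, and Control. The labels give no genotype change, dose, route or age, and do not say whether every library came from its own mouse, so a p-value reflects only how these libraries differ, which can be technical. The design text names a profile of TM and/or NAC given over weeks, so each agent was compared with Control, the combination with each agent alone, and the agents' joint action was tested as an interaction.

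Mitochondrial biogenesis in muscle is driven by the coactivators PGC-1alpha and PGC-1beta (*Ppargc1a*, *Ppargc1b*), which bind DNA through partners such as the estrogen-related receptor alpha (*Esrra*) and nuclear respiratory factor 1 (*Nrf1*). These partners switch on nuclear genes of the respiratory chain and *Tfam*, whose product packages mitochondrial DNA and activates its transcription. Mitofusins 1 and 2 (*Mfn1*, *Mfn2*) fuse the outer membranes of neighbouring mitochondria and OPA1 fuses the inner membranes, while DRP1 (*Dnm1l*) pinches mitochondria apart. PINK1 is a kinase that builds up on damaged mitochondria and marks them for mitophagy. Much of the control of PINK1, DRP1, OPA1 and PGC-1alpha acts on the proteins, which RNA levels do not show.

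Library totals were 54.7 to 90.7 M counts. All 12 skeletal muscle markers looked up were detected, with mean summed levels of 148485 (TM+NAC), 156087 (TM), 163170 (NAC) and 161318 (Control) CPM (counts scaled to library size, per M counts). NAC replicate 4 stood apart: it had 90.7 M counts against at most 66.9 M in the other 19 libraries. Its mitochondrial genome took 20.3% of counts, against 13.1 to 18.9% in the others. Its GC slope, the change in log2 level per 10 percentage points of transcript GC content relative to the mean of all libraries, was -0.522, against -0.113 to 0.128 in the others. Several folds and correlations of the regulators are also given without this library. The medians and counts of the wider gene lists are given only with it. Some transcripts of other tissues and cell types differed between the groups. The 12 astrocyte and oligodendrocyte markers summed to 149 to 226 CPM in TM+NAC, 91.5 to 171 in TM, 105 to 189 in NAC and 77.6 to 168 in Control. The 20 neuron markers summed to 448 to 502 CPM in TM+NAC, 448 to 528 in TM, 375 to 597 in NAC and 397 to 490.1 in Control, and 8 of the 20 reached a mean FPKM of 1. Most of this sum was *Camk2a*, which averaged 348 CPM in TM+NAC, 404 in TM, 403 in NAC and 423 in Control. Every other neuron marker had a higher mean in each treated group than in Control. *Snap25*, one of these, chosen after its values were seen, averaged 13.0 CPM in TM+NAC, 7.51 in TM, 10.96 in NAC and 1.37 in Control, and the glial marker *Mog* was listed at 0 in every Control library. The 7 cartilage markers in the table summed to 28.7 to 45.2 CPM in TM+NAC, 7.15 to 19.7 in TM, 7.75 to 24.3 in NAC and 6.67 to 15.997 in Control. The 9 fibroblast and matrix markers summed to 745.4 to 1052 CPM in TM+NAC, 460 to 932 in TM and 659 to 826 in NAC. In Control they summed to 349 to 743.0 CPM, so TM+NAC and Control were only just parted. Means were higher in TM+NAC than in Control for *Lox* (43.6 against 6.03 CPM), *Thbs1* (48.6 against 6.21) and *Fn1* (108 against 47.3). They were also higher for *Col1a1*, *Col1a2*, *Col3a1* and *Dcn* (236 against 219 for *Dcn*). *Pdgfra* (15.5 against 16.6) and *Lum* (15.4 against 15.8) were lower. The summed level of the 10 slow-fibre markers averaged 1192 CPM in TM+NAC, 1429 in TM, 1373 in NAC and 1763 in Control, with overlapping ranges. The part of these transcripts in the values below was not tested, and in bulk muscle fewer cells of a type and less RNA per cell cannot be told apart.

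*Pink1* was the most abundant of the 10 genes and *Ppargc1b* the least. Ordered by the deposited FPKM values, which are scaled by transcript length and depth and so can be compared between genes, *Pink1* averaged 258 ± 34.5 over all libraries (SD, n = 20) and *Mfn2* 83.9 ± 7.58. *Mfn1* averaged 27.4 ± 2.49 FPKM, *Esrra* 15.4 ± 2.61, *Dnm1l* 12.5 ± 1.505 and *Opa1* 11.8 ± 1.56. *Tfam* averaged 7.82 ± 0.439 FPKM and *Ppargc1a* 3.92 ± 0.820, so the coactivator's transcript was under that of each fusion gene. *Nrf1* averaged 0.861 ± 0.109 FPKM and *Ppargc1b* 0.764 ± 0.194. In all 20 libraries *Pink1* was above *Mfn2*, *Mfn2* above *Mfn1*, *Mfn1* above *Esrra*, *Opa1* above *Tfam*, *Tfam* above *Ppargc1a* and *Ppargc1a* above *Nrf1*. The order of the remaining neighbours was not the same in every library: *Esrra* was above *Dnm1l* in 16 of 20, *Dnm1l* above *Opa1* in 17 and *Nrf1* above *Ppargc1b* in 16. *Nrf1* and *Ppargc1b* lay under the filter of a mean FPKM of at least 1 and did not enter the test over 9696 genes, so their folds come from a fit of all 31618 genes.

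The promoters of the 10 genes were searched for the letters of 4 binding motifs of the biogenesis program. The RefSeq promoter table for GRCm38.p6, with 250 bases before and 50 after each start, held 13 windows for 9 of the genes. On either strand, the NRF1 motif (GCGC, any base, TGCGC) was found in *Opa1* and *Pink1* and lies in 4.60% of all 32851 windows of the table. The ETS or GABP motif CCGGAAG was found in *Mfn1*, *Tfam* and *Dnm1l* (8.86% of windows), and the YY1 motif AANATGGCG in *Mfn1* (2.38%). The ERR motif TNAAGGTCA was found in 0 of the 9 genes (1.28% of windows), which says only that these letters are not in these windows. The YY1 and ETS/GABP matches of *Mfn1* do not overlap each other. The stretches that hold the upstream matches are shown 5′ to 3′ on the strand of the gene with each match in capitals, because they let a reader see where these genes of fusion, mitophagy and mitochondrial DNA upkeep carry the letters searched for. The match in *Dnm1l* lies downstream of its start and is not shown.
Mfn1 (chr3:32529359-32529458, plus strand, YY1 then ETS/GABP): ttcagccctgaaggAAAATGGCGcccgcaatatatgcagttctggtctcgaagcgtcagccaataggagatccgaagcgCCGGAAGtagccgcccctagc
Opa1 (chr16:29579230-29579329, plus strand, NRF1): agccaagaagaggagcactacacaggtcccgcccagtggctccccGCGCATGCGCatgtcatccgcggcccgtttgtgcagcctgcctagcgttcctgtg
Pink1 (chr4:138326297-138326396, minus strand, NRF1): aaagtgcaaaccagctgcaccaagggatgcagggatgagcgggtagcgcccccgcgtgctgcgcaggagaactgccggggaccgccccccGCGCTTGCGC
Tfam (chr10:71238045-71238144, minus strand, ETS/GABP): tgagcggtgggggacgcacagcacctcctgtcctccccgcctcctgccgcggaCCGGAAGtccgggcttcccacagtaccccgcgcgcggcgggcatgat
Counted from the RefSeq start, the NRF1 match of *Opa1* ends 50 bases upstream and reads the same on both strands, and that of *Pink1* ends at the base before the start. *Opa1* and *Pink1*, which share this motif, varied in opposite directions over the libraries (r = -0.83), and less so after adjustment for GC content (r = -0.39), as described further on. A link of this to the motif was not tested.

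None of the regulators changed by the test in any comparison. Of the 8 genes tested, 0 were called in TM+NAC vs Control, TM vs Control, NAC vs Control, TM+NAC vs TM, TM+NAC vs NAC, the interaction, the TM main effect, the NAC main effect or the test of any difference among groups (edgeR quasi-likelihood test, Benjamini-Hochberg adjusted p under 0.05 over 9696 genes). DESeq2 and limma called 0 as well. At an unadjusted p under 0.05, 5 of the 64 pairs of a gene and a comparison passed, and 0 of 8 in the test of any difference. Over all tested genes 3.37 to 11.9% passed that cut in a comparison, with the highest share in TM+NAC vs NAC, and 6.42% in the test of any difference, so the regulators' count was near the background. The background was low too: over all tested genes 0.351% were called in TM+NAC vs Control, 0% in TM vs Control, 0.217% in NAC vs Control, 0.0309% in TM+NAC vs TM and 0.0309% in TM+NAC vs NAC. The interaction called 0.0103%, the TM main effect 0.0413%, the NAC main effect 0.309% and the test of any difference 0.196%. In the fit of all genes, which holds *Nrf1* and *Ppargc1b*, 1.79% were called in TM+NAC vs Control, 0.623% in TM vs Control and 1.39% in NAC vs Control, with neither gene among them. That fit called 0.0664% in TM+NAC vs TM, 0.0411% in TM+NAC vs NAC, 0.0221% in the interaction, 0.0696% and 1.34% in the main effects of TM and NAC, and 0.936% in the test of any difference, again with neither gene. The 3 comparisons with Control share the Control libraries. The intervals give the precision: against Control, the log2 folds of the 8 genes lay between -0.16 and 0.19, and the lowest and highest bounds of their 95% intervals, both of *Ppargc1a*, were -0.54 and 0.47.

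**Figure D1:**
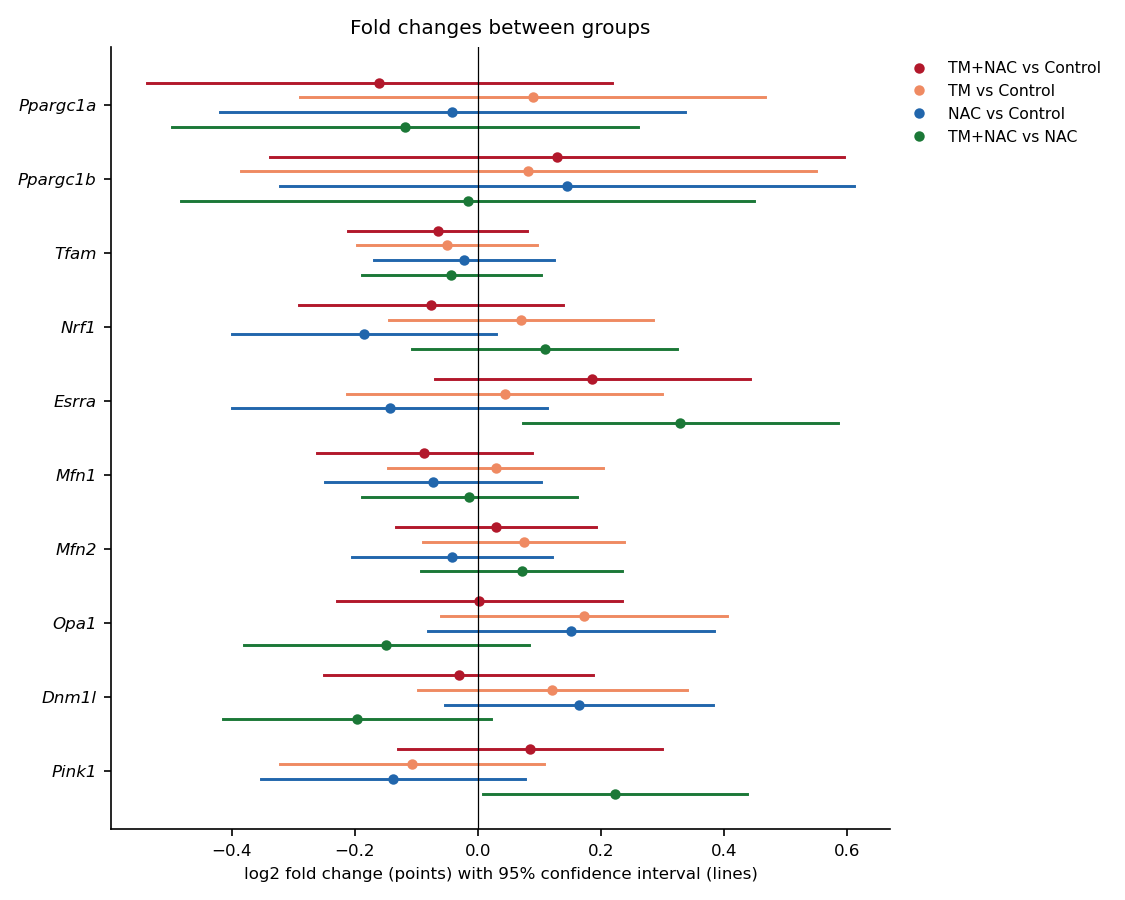
Log2 fold changes of the 10 genes between groups, with points for the fold and lines for the 95% confidence interval; *Nrf1* and *Ppargc1b* come from the fit without a filter. All intervals against Control cross 0, and those of *Esrra* and *Pink1* in TM+NAC vs NAC (folds of 0.33 and 0.22) lie just above it.

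*Ppargc1a* (chr5:51454250-51567704, minus strand, GRCm38), the master coactivator of biogenesis, had group means of 27.8 CPM in TM+NAC, 33.1 in TM, 30.2 in NAC and 31.1 in Control, and a wider spread in each treated group than in Control. It had 28.4, 22.3, 33.7, 34.4 and 20.3 CPM in TM+NAC libraries 1 to 5, and 40.2, 41.9, 29.6, 25.6 and 28.0 in TM. It had 24.1, 24.8, 34.7, 43.9 and 23.3 CPM in NAC, against 28.4, 33.3, 30.0, 31.8 and 31.8 in Control. Libraries of each treated group lay both above and below the whole Control range. The log2 fold against Control was -0.16 ± 0.18 (SE) in TM+NAC, 0.09 ± 0.18 in TM and -0.04 ± 0.18 in NAC, with adjusted p of 0.997, 0.999 and 0.943 (edgeR). The SD of log2 levels was 0.34 in TM+NAC, 0.32 in TM and 0.39 in NAC, against 0.087 in Control. The smallest treated SD was 3.62 times that of Control, a ratio that 0.278% of the 9696 tested genes reached. After adjustment for GC content (per-library medians of genes of like GC content taken out, added after the data were seen), the SDs were 0.32, 0.25 and 0.27 in TM+NAC, TM and NAC, against 0.13 in Control. The share of 0.278% is for levels before this adjustment, and none was computed after it. The difference in spread was not tested. Within groups, *Ppargc1a* varied more than 87.0% of tested genes.

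*Ppargc1b* (chr18:61298136-61400431, minus strand), the related coactivator, had few counts, 151 to 383 per library. It was at 2.63 to 5.93 CPM in TM+NAC, 2.53 to 4.38 in TM, 2.41 to 4.96 in NAC and 2.91 to 3.74 in Control, so all groups overlapped and Control again had the narrowest range. Its log2 folds against Control were 0.13 ± 0.22 in TM+NAC, 0.08 ± 0.22 in TM and 0.15 ± 0.22 in NAC (edgeR without a filter, adjusted p of 0.984, 1 and 0.909). Control had the smallest SD of log2 levels for 5 of the 10 genes, *Ppargc1a*, *Ppargc1b*, *Nrf1*, *Mfn1* and *Mfn2*, and for 19.99% of tested genes. *Ppargc1b* and *Nrf1* are not among those tested genes. Among the tested regulators, after GC adjustment, Control had the smallest SD only for *Ppargc1a* and *Mfn2*. The adjusted SD of *Mfn1* was 0.086 in Control and 0.057 in NAC.

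*Esrra* (chr19:6910977-6921840, minus strand), the orphan receptor through which PGC-1alpha reaches many respiratory chain genes, was highest after the combination. It had 86.9, 91.6, 88.1, 93.2 and 85.1 CPM in TM+NAC, and 74.9, 71.9, 75.5, 84.3 and 96.6 in TM. It had 67.8, 82.9, 73.9, 50.8 and 78.7 CPM in NAC, against 84.5, 96.4, 66.4, 63.0 and 80.7 in Control. Every TM+NAC library lay above every NAC library, and TM+NAC overlapped with TM and with Control. Set against NAC, the log2 fold in TM+NAC was 0.33 ± 0.12 (edgeR, unadjusted p = 0.0143, adjusted p = 0.409). Without NAC replicate 4, the lowest library, it was 0.23 ± 0.11, and after GC adjustment 0.16 ± 0.066 (edgeR, adjusted p of 0.901 and 0.556). The TM main effect, which sets TM+NAC and TM against NAC and Control, was 0.19 ± 0.087 (edgeR, unadjusted p = 0.0439, adjusted p = 0.827), and 0.12 ± 0.047 after GC adjustment (edgeR, adjusted p = 0.743). Without NAC replicate 4 this effect was 0.14 ± 0.074 (edgeR, adjusted p = 0.955). The 3′ end of *Esrra* overlaps *Trmt112* on the opposite strand, which had a mean of 7.94 FPKM, and whether the counting used strand is not given in the sources used here.

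*Pink1* was the other gene whose TM+NAC and NAC libraries did not overlap. Over the 8 tested genes 2 were parted in this way, against 2.63% of the 9696 tested genes, and after GC adjustment 0 of 8 and 1.94%. In TM+NAC vs Control, TM vs Control, NAC vs Control and TM+NAC vs TM the groups did not overlap for 0 of the 8 genes, against 2.2%, 0.443%, 0.598% and 1.8% of tested genes.

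*Tfam* (chr10:71225464-71238280, minus strand), which packages mitochondrial DNA and activates its transcription, was the steadiest of the 10. It was at 39.0 to 41.7 CPM in TM+NAC, 37.4 to 44.4 in TM, 36.1 to 47.5 in NAC and 39.0 to 44.1 in Control. Its spread within groups was smaller than that of all but 5.48% of tested genes, which gives it the narrowest intervals of the set. The log2 fold against Control was -0.07 in TM+NAC (95% interval -0.21 to 0.08), -0.05 in TM (-0.20 to 0.10) and -0.02 in NAC (-0.17 to 0.12). The signs of these small folds turned with the limma fit of FPKM values, where all 3 were at or above 0.015.

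*Nrf1* (chr6:30047988-30153458, plus strand), the activator of respiratory chain genes, had 8.36 to 12.4 CPM in TM+NAC, 10.6 to 13.4 in TM, 8.83 to 10.7 in NAC and 9.87 to 11.9 in Control. The NAC main effect, which sets TM+NAC and NAC against TM and Control, was -0.17 ± 0.073 on the log2 scale (edgeR without a filter, unadjusted p = 0.0338, adjusted p = 0.397). Its log2 fold in NAC vs Control was -0.19 ± 0.10 (edgeR without a filter, adjusted p = 0.488).

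*Mfn1* (chr3:32529465-32579239, plus strand) and *Mfn2* (chr4:147873599-147904704, minus strand), the outer membrane fusion GTPases, differed little between groups. *Mfn1* was at 168 to 207 CPM in TM+NAC, 175 to 231 in TM, 171 to 221 in NAC and 183 to 218 in Control. *Mfn2* was at 471 to 564 CPM in TM+NAC, 469 to 571 in TM, 444 to 542 in NAC and 455 to 539 in Control. Ranges of all 4 groups overlapped for both. Log2 folds of *Mfn1* against Control were -0.09, 0.03 and -0.07 in TM+NAC, TM and NAC, each with an SE of 0.084, and those of *Mfn2* were 0.03, 0.07 and -0.04, each with an SE of 0.078.

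*Opa1* (chr16:29579334-29654884, plus strand), the inner membrane fusion GTPase, and *Dnm1l* (chr16:16312230-16358959, minus strand), the fission GTPase, were closely alike in how they varied. *Opa1* had 112, 98.2, 108, 105 and 97.1 CPM in TM+NAC and 129, 128, 124, 96.9 and 106 in TM. It had 109, 94.0, 113, 155 and 104 CPM in NAC, against 97.7, 91.4, 112, 115 and 103 in Control. TM libraries 1 to 3 and NAC replicate 4 were the highest, and no group was parted from another. *Dnm1l* had 71.9, 71.9, 75.0, 72.3 and 67.8 CPM in TM+NAC and 83.0, 90.4, 82.9, 65.3 and 77.1 in TM. It had 84.1, 70.6, 79.4, 106 and 70.4 CPM in NAC, against 63.9, 67.5, 75.8, 83.2 and 76.2 in Control. Again NAC replicate 4 was highest, and the TM+NAC libraries lay close together within the Control range. *Opa1* had log2 folds of 0.00, 0.17 and 0.15 against Control in TM+NAC, TM and NAC (SE 0.11 each), and *Dnm1l* of -0.03, 0.12 and 0.16 (SE 0.10 each). Without NAC replicate 4 the folds in NAC vs Control were 0.026 ± 0.089 for *Opa1* and 0.060 ± 0.088 for *Dnm1l*, and after GC adjustment 0.054 ± 0.065 and 0.048 ± 0.058. The interaction was taken as (TM+NAC minus NAC) minus (TM minus Control). It was -0.32 ± 0.16 for *Opa1* and -0.32 ± 0.15 for *Dnm1l* (edgeR, unadjusted p of 0.0550 and 0.0444, adjusted p of 0.597 for each). Without NAC replicate 4 the interactions were -0.19 and -0.21, and after GC adjustment -0.18 ± 0.091 and -0.13 ± 0.083. *Dnm1l* in NAC vs Control had the smallest adjusted p of any of the 8 genes against Control, 0.641 (edgeR), and 0.999 without NAC replicate 4.

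*Pink1* (chr4:138313409-138326307, minus strand), the mitophagy kinase, had the opposite pattern of folds. It had 881, 935, 862, 838 and 901 CPM in TM+NAC and 669, 648, 706, 967 and 879 in TM. It had 775, 796, 816, 644 and 754 CPM in NAC, against 935, 915, 746, 778 and 792 in Control. TM split into 3 libraries below the Control range and a library above it, while TM+NAC was narrow. The log2 fold of TM+NAC over NAC was 0.22 ± 0.10 (edgeR, unadjusted p = 0.0424, adjusted p = 0.410), and after GC adjustment 0.08 ± 0.072. Without NAC replicate 4 it was 0.17 ± 0.10. The interaction was 0.33 ± 0.15 (edgeR, unadjusted p = 0.0347, adjusted p = 0.597), and after GC adjustment 0.17 ± 0.10. Without NAC replicate 4 the interaction was 0.27 ± 0.14 (edgeR, adjusted p = 0.861). Against Control the log2 folds were 0.08, -0.11 and -0.14 in TM+NAC, TM and NAC (SE 0.10 each).

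Other NAC vs Control folds also turned on NAC replicate 4 or on the GC adjustment, and none passed the test in either setting. Without that library the log2 fold was -0.21 ± 0.17 for *Ppargc1a*, 0.040 ± 0.23 for *Ppargc1b*, -0.072 ± 0.062 for *Tfam* and -0.039 ± 0.11 for *Esrra*. It was -0.12 ± 0.080 for *Mfn1* and -0.080 ± 0.10 for *Pink1*. After GC adjustment it was -0.18 ± 0.15 for *Ppargc1a*, -0.10 ± 0.058 for *Tfam*, -0.024 ± 0.066 for *Esrra*, -0.12 ± 0.063 for *Mfn1*, -0.0048 ± 0.085 for *Mfn2* and -0.029 ± 0.072 for *Pink1*. All of these folds had an adjusted p of at least 0.663 (edgeR).

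**Figure D2:**
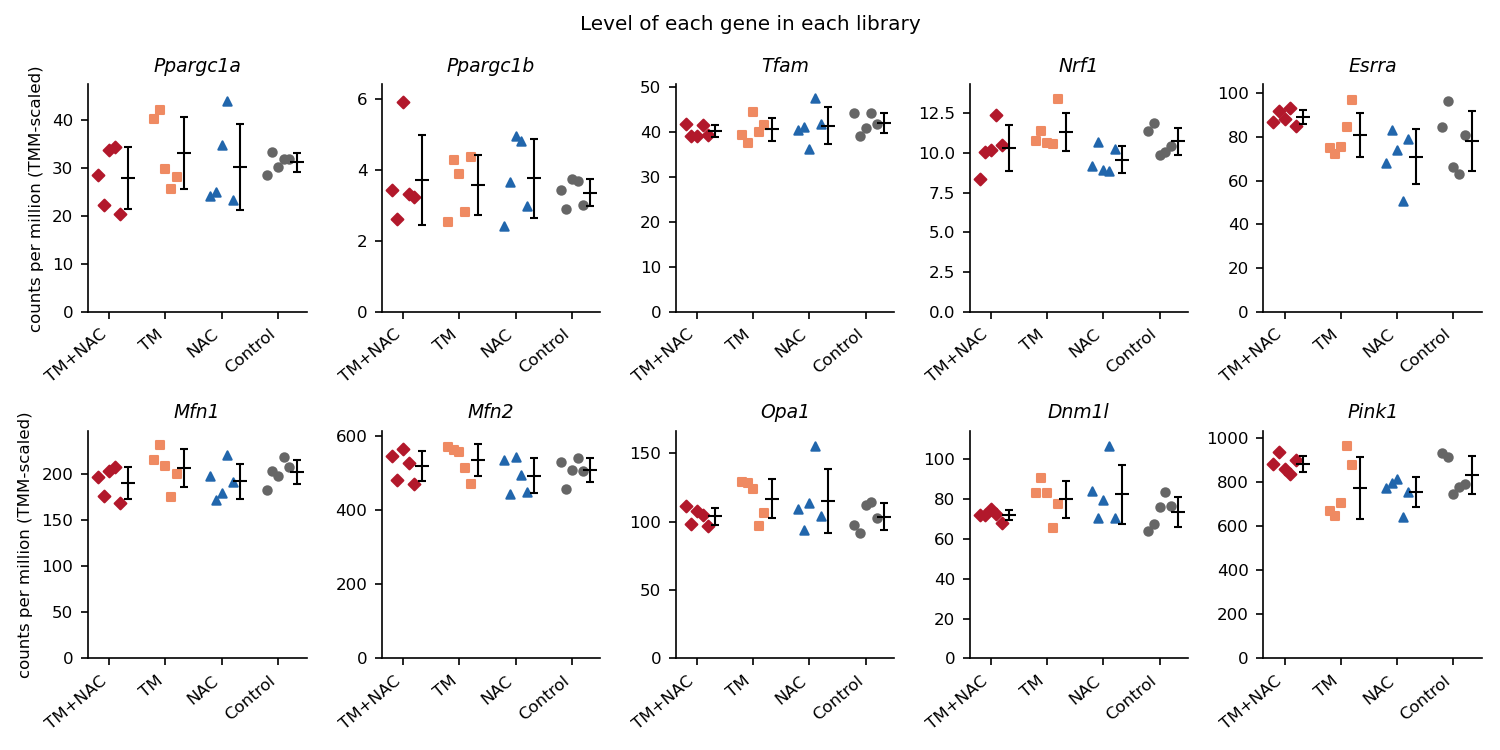
TMM-scaled CPM of each gene in each library, by group (points, in replicate order within a group), with the mean and SD of 5 libraries in black beside them. *Ppargc1a* spreads from 20.3 to 43.9 in the treated libraries and from 28.4 to 33.3 in Control, and *Tfam* stays between 36.1 and 47.5 throughout.

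The levels of several regulators varied together from library to library. Over the 20 libraries, 14 of the 45 pairs of genes were correlated at an adjusted p under 0.05 (permutation test, Benjamini-Hochberg over 45 pairs), 8 positively and 6 negatively. How many pairs of other tested genes pass was not tested. As 41.3% of tested genes had an absolute r over 0.6 with the GC slope, this count does not set the regulators apart. *Opa1* and *Dnm1l* had Pearson r = 0.917 and Spearman rho = 0.863 (permutation p of 1e-05 for each, the smallest that 100000 permutations can give, adjusted p of 0.00015 and 0.00045). Without the 2 libraries farthest from the median of *Opa1* r was 0.858. *Opa1* and *Pink1* were opposed, at r = -0.832 and rho = -0.774 (permutation p of 1e-05 and 0.0002, adjusted p of 0.00015 and 0.0018), with r = -0.763 without the farthest 2. *Esrra* and *Pink1* had r = 0.740 and rho = 0.768 (permutation p of 0.00018 and 0.00013, adjusted p of 0.00135 and 0.0018), and r = 0.715 without the farthest 2. *Ppargc1a* and *Mfn1*, the coactivator and a mitofusin, had r = 0.785 and rho = 0.749 (permutation p of 2e-05 and 0.00018, adjusted p of 0.000225 and 0.0018), and r = 0.707 without the farthest 2. So, by r, *Opa1*, *Dnm1l*, *Mfn1* and *Ppargc1a* formed a block of positive correlations, set against *Pink1*. By rank, *Ppargc1a* missed the threshold with *Pink1* (rho = -0.487) and with *Dnm1l* (rho = 0.540), with adjusted permutation p of 0.09 and 0.0554. Of the block, only *Opa1* and *Dnm1l* were also set against *Esrra* at an adjusted p under 0.05. *Esrra* had r = -0.41 with *Ppargc1a* and -0.42 with *Mfn1* (adjusted permutation p of 0.156 and 0.147). *Tfam* had no pair at an adjusted p under 0.05. Without NAC replicate 4, r was 0.857 for *Opa1* and *Dnm1l*, -0.807 for *Opa1* and *Pink1*, 0.673 for *Esrra* and *Pink1* and 0.762 for *Ppargc1a* and *Mfn1*.

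The genes of these blocks differed in the GC content of their transcripts and in their relation to the GC slope of the libraries. The longest coding transcript had a GC content of 40.9% in *Dnm1l*, 41.7% in *Ppargc1a*, 43.5% in *Opa1*, 44.9% in *Tfam* and 45.9% in *Mfn1*, against 59.0% in *Pink1* and 61.8% in *Esrra*, with a median of 50.4% over tested genes. *Nrf1* had 51.1%, *Mfn2* 53.1% and *Ppargc1b* 57.8%, and *Mfn2* and *Ppargc1b*, although above the median, had r = -0.221 and -0.273 with the GC slope (rho of -0.465 and -0.248, adjusted permutation p of 0.432 and 0.312 for r and 0.0891 and 0.382 for rho; r = -0.574 and 0.0152 without the 2 libraries farthest in GC slope, Control replicate 4 and NAC replicate 4). *Opa1* had r = -0.897 with the GC slope, *Dnm1l* r = -0.895, *Esrra* r = 0.882 and *Pink1* r = 0.787, each with a permutation p of 1e-05 and an adjusted p of 6.25e-05 over 50 relations. Their Spearman rho was -0.874, -0.866, 0.830 and 0.908, with adjusted permutation p of 0.000214, 8.33e-05, 8.33e-05 and 8.33e-05. Without those 2 libraries r was -0.882, -0.847, 0.781 and 0.930. Such relations were common in these libraries: 6 of the 10 genes and 41.3% of tested genes had an absolute r over 0.6 with the GC slope. An absolute r at least that of *Opa1* was reached by 5.24% of tested genes, and at least that of *Pink1* by 19.2%. The slope was computed over the same tested genes, so the permutation p-values do not set these regulators apart from other genes of like GC content. The GC slope itself went with the share of counts from the mitochondrial genome (r = -0.818, rho = -0.726, permutation p of 3e-05 and 0.00045; r = -0.714 without the farthest 2) and with a slope on transcript length (r = -0.903, rho = -0.916, permutation p of 1e-05 for each; r = -0.917 without the farthest 2), so these library measures cannot be told apart here. It averaged 0.074 in TM+NAC, -0.005 in TM, -0.089 in NAC and 0.020 in Control.

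**Figure D3:**
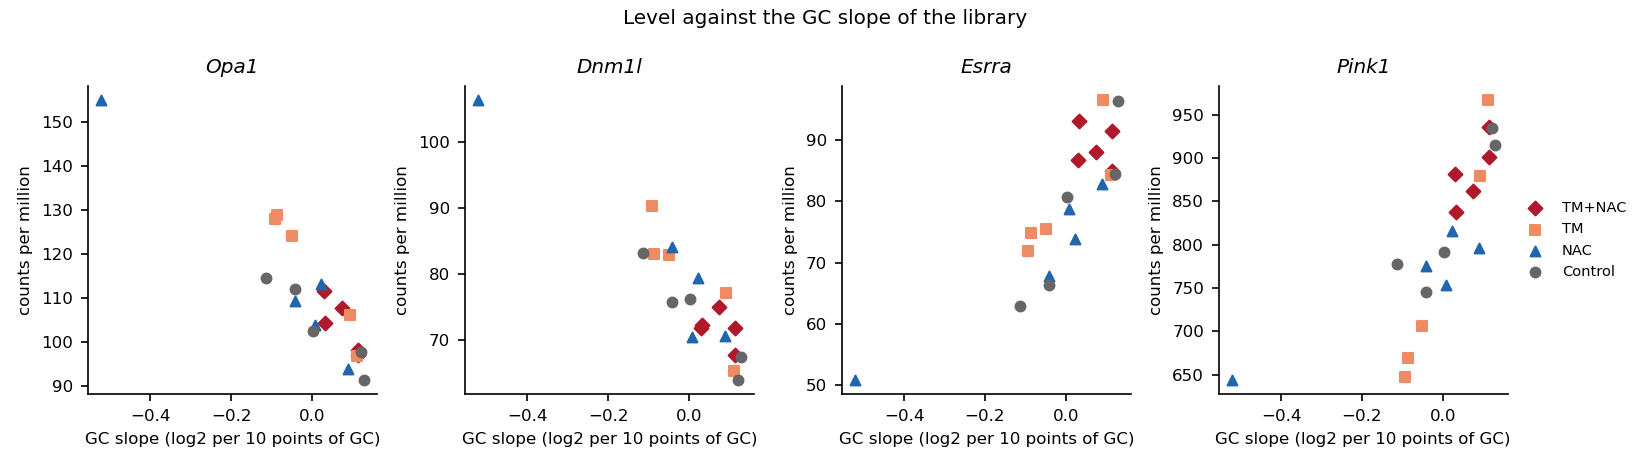
CPM of *Opa1*, *Dnm1l*, *Esrra* and *Pink1* in each library (points, by group) against the GC slope of the library, in log2 units per 10 percentage points of GC content. *Opa1* and *Dnm1l* run down and *Esrra* and *Pink1* run up, with NAC replicate 4 alone at -0.522.

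After GC adjustment, 3 of the 28 pairs among the 8 tested genes had an absolute r over 0.6, against 12 before. *Esrra* and *Dnm1l* had r = 0.009 after it, against -0.785 before, *Esrra* and *Pink1* 0.15 against 0.74, and *Opa1* and *Pink1* -0.39 against -0.83. The 3 pairs left were *Mfn2* and *Opa1* at r = 0.796 (adjusted permutation p = 0.00196 over 28 pairs), *Ppargc1a* and *Mfn1* at 0.657 and *Opa1* and *Dnm1l* at 0.655 (adjusted permutation p of 0.0168 for each). Their rho was 0.832, 0.684 and 0.588, with adjusted permutation p of 0.00084, 0.0154 and 0.0635, so the last pair missed the threshold by rank. *Mfn2* and *Opa1*, which fuse the outer and the inner membrane, were less correlated before the adjustment, at r = 0.508. The 3 pairs lie among the genes of fusion and fission and between *Ppargc1a* and *Mfn1*. The adjustment used GC content alone. As measured, the slope on transcript length had r = 0.947 with *Opa1*, 0.890 with *Dnm1l*, 0.646 with *Ppargc1a*, 0.641 with *Mfn1* and 0.513 with *Mfn2*. Its r was -0.818 with *Esrra*, -0.829 with *Pink1* and 0.309 with *Tfam*. The part of transcript length in the 3 pairs was not tested, nor how many pairs of other genes pass after the adjustment.

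**Figure D4:**
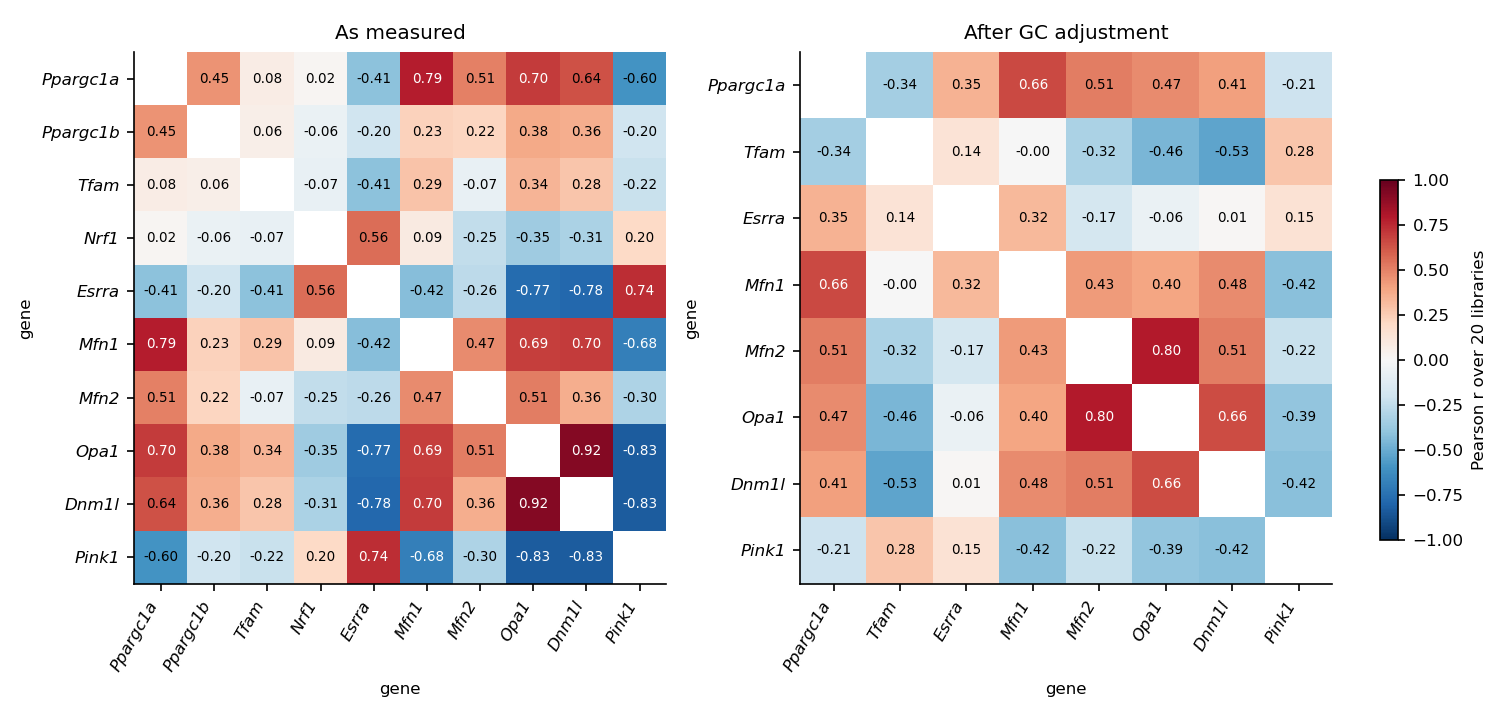
Pearson r over 20 libraries for each pair of genes, as measured (left, 10 genes) and after GC adjustment (right, the 8 tested genes), from blue for -1 to red for 1. The negative block of *Pink1* and *Esrra* against *Opa1* and *Dnm1l* fades on the right, and *Mfn2* with *Opa1* strengthens from 0.51 to 0.80.

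*Mfn1* followed the mitochondrial share of counts most closely of the 10, with r = 0.894 and rho = 0.931 (permutation p of 1e-05 for each, adjusted p of 6.25e-05 and 8.33e-05) and r = 0.916 without TM replicate 2 and NAC replicate 4. *Dnm1l* had r = 0.880 with this share, *Opa1* 0.824, *Ppargc1a* 0.747 and *Pink1* -0.779, with rho of 0.791, 0.701, 0.617 and -0.695 and adjusted permutation p of at most 0.000538 for r and 0.015 for rho. Without the farthest 2 libraries r was 0.742, 0.637, 0.574 and -0.620, while *Tfam* had r = 0.362 and an adjusted permutation p = 0.188. How many of all tested genes had such an r with this share was not tested. The share went with the GC slope (r = -0.818), with which 41.3% of tested genes had an absolute r over 0.6. These p-values therefore do not set the regulators apart from other genes.

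The tested genes whose levels ran most like each regulator over the 20 libraries, by Pearson r, were named as their companions. For *Mfn1* they were *Acadm* (r = 0.924), which starts the oxidation of medium-chain fatty acids, *Sdha* (0.913), a subunit of succinate dehydrogenase, and *Dlat* (0.909), a subunit of pyruvate dehydrogenase. For *Esrra* they were *Ptges2* (0.953), *Cyc1* (0.949), the cytochrome c1 of complex III, and *Atp5g1* (0.936), a subunit of the ATP synthase ring. For *Dnm1l* they were *mt-Nd4l* (0.935), *Gm10222* (0.932) and *mt-Atp8* (0.927), of which the first and last are made in the mitochondrion. For *Pink1* they were *Ssna1* (0.936) and the ribosomal protein genes *Rpl11* (0.920) and *Rps3* (0.912). For *Opa1* they were *Dhx9* (0.944), *Nrd1* (0.943) and *Usp24* (0.941), for *Mfn2* *Sptb* (0.887), *Gbf1* (0.881) and *Ppp1r12b* (0.876), and for *Ppargc1a* *Ssh2* (0.862), *Ankrd17* (0.853) and *Jmjd1c* (0.840). *Tfam*, *Nrf1* and *Ppargc1b* had looser companions: *Bpgm* (0.773), *Gm13803* (0.767) and *Pcgf5* (0.753) for *Tfam*, *Jmjd6* (0.755), *Tmem37* (0.734) and *Magix* (0.729) for *Nrf1*, and *Xpc* (0.775), *Tigd4* (0.671) and *Cenpq* (0.666) for *Ppargc1b*. These are the highest correlations among all tested genes and share depth and GC slope, so they describe these libraries only.

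Wider lists of the same pathways also held no gene that passed the test. In 6 lists, 0 genes were called in any of the 8 comparisons with a direction by edgeR or by DESeq2. Over all tested genes edgeR called 0 to 0.351% in these comparisons, so 0 calls in lists of this size is near the background. At an unadjusted p under 0.05 stood 6.38% of all tested genes in TM+NAC vs Control, 7.44% in NAC vs Control and 11.9% in TM+NAC vs NAC. Among 23 tested partners of biogenesis, TM+NAC vs NAC had 9 positive folds and a median log2 fold of -0.11, against -0.003 over all tested genes, with 4 of 23 at an unadjusted p under 0.05, against 11.9%. After GC adjustment this median was -0.025, with 10 positive folds. The smallest p were those of *Atf2* (-0.35 ± 0.11), *Mef2c* (-0.44 ± 0.16), both transcription factors that act on the PGC-1alpha promoter, the mitochondrial deacetylase *Sirt3* (0.34 ± 0.12) and *Perm1* (0.33 ± 0.13), a muscle factor induced by PGC-1alpha (edgeR, adjusted p of 0.409 for each). Among 16 tested genes of mitochondrial DNA maintenance and transcription, TM+NAC vs Control had 4 positive folds and a median of -0.04 with 0 genes at an unadjusted p under 0.05.

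The genes that follow PGC-1alpha in muscle had mostly negative folds after NAC alone, without a call. In NAC vs Control 5 of 25 had a positive fold, against 50.03% of all tested genes, with a median log2 fold of -0.11 and 7 of 25 at an unadjusted p under 0.05, against 7.44% of all tested genes. *Cpt1b*, the gate for fatty acids into muscle mitochondria, was at -0.22 ± 0.075, *Sdhb* of complex II at -0.36 ± 0.13, *Vegfa* at -0.31 ± 0.13 and *Cox5b* of complex IV at -0.32 ± 0.14 (edgeR, adjusted p of 0.535, 0.587, 0.638 and 0.638). In TM+NAC vs NAC, which shares the NAC libraries, 19 of 25 were positive with a median of 0.11 and 8 of 25 at an unadjusted p under 0.05, against 11.9%, and *Mb*, which stores oxygen, was at 0.44 ± 0.16 (edgeR, adjusted p = 0.409). GC adjustment left these medians at -0.11 and 0.10. The same list in TM+NAC vs Control had 10 positive folds and a median of -0.03, and in TM vs Control 18 and 0.03. *Ppargc1a* itself had a log2 fold of -0.04 in NAC vs Control and -0.12 in TM+NAC vs NAC.

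Of 31 tested genes of fusion, fission and inner membrane shape, TM+NAC vs NAC had 19 positive folds and a median log2 fold of 0.08, with 9 of 31 at an unadjusted p under 0.05, against 11.9% of all tested genes. After GC adjustment this median was 0.043, with 21 positive folds. *Mtfp1* (0.31 ± 0.094), *Mul1* (0.33 ± 0.11) and *Mief2* (0.30 ± 0.10), which act on fission or on mitofusins, and *Slc25a46* (-0.28 ± 0.11), an outer membrane carrier, had the smallest p (edgeR, adjusted p of 0.409 for each). Of 35 tested mitophagy genes, 20 were positive with a median of 0.05 and 4 of 35 at an unadjusted p under 0.05, near that background. The mitophagy median was 0.042 after GC adjustment, with 24 positive folds. The smallest p were those of the autophagosome protein gene *Map1lc3b* (0.18 ± 0.078, edgeR, adjusted p = 0.409) and the import receptor *Tomm20* (0.16 ± 0.072, edgeR, adjusted p = 0.409). Against Control, the TM+NAC medians of these lists were 0.02 and 0.02, with 1 and 0 genes at an unadjusted p under 0.05.

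The 13 protein genes of the mitochondrial genome, which are cut from shared long transcripts and so do not vary independently, had the median fold farthest from 0 of the 6 lists in TM+NAC vs Control. In TM+NAC vs Control 0 of 13 had a positive fold, with a median log2 fold of -0.22 and 2 at an unadjusted p under 0.05, and the median after GC adjustment was -0.15. In TM vs Control 11 of 13 were positive with a median of 0.05, and in NAC vs Control 7 with a median of 0.01. After GC adjustment TM vs Control had 10 of 13 positive with a median of 0.04. NAC vs Control then had 2 of 13 with a median of -0.12, so the lower values were not particular to the combination. The median in TM+NAC vs NAC was -0.23, and -0.01 after GC adjustment. *Tfam*, whose product activates transcription of these genes, had a log2 fold of -0.07 in TM+NAC vs Control.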

How the data were processed

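Per the submitters' processing notes, cutadapt 1.9, FastQC, HISAT2 2.2.1 and StringTie were used with GRCm38. The counting method, its use of strand and the annotation release are not named in the labels or headers. For each gene and library the authors deposited, per the file headers, a count (whole numbers, not normalized) and an FPKM value (scaled by length and depth). The genes and lists described here were chosen with earlier results of these data known.

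The 9696 genes whose FPKM averaged at least 1 were fitted in a single edgeR 4.0.16 quasi-likelihood model of the 4 groups (R 4.3.3, TMM scaling, two-sided, Benjamini-Hochberg over all tested genes, called at 0.05). SE is the log2 fold over the square root of F. Levels are TMM-scaled CPM, with 0.5 added before log2 for SDs and correlations. Named genes are the 10 regulators, the 3 genes most like each, and up to 4 of each list with the smallest p. Correlations used 100000 permutations. GC content came from the longest coding GENCODE M21 transcript (9688 of 9696 genes), and the GC adjustment used 20 bins. Alternatives were DESeq2 1.42.0, limma 3.58.1, other filters and scaling, a replicate block, only the groups compared, and leaving out each library. Libraries of 54.7 to 90.7 M counts gave each regulator at least 151 counts. No libraries of a group were alike within sampling noise (lowest chi-square per degree of freedom 22.9).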

Additional observations from a re-analysis of the deposited data

Results flagged for a closer look

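*Ppargc1b* in TM+NAC replicate 3 was at 5.93 CPM, far above the other 4 TM+NAC libraries, with a gap of 0.751 of the group's whole range. It was the only one singled out among 40 groups looked at, where chance singles out about 1 in 20. Without this library the log2 fold of *Ppargc1b* in TM+NAC vs Control was -0.10, against 0.13 with it. The gene had at most 383 counts in a library.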

How the results depend on the processing

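The count of regulators called stayed at 0 in all 9 comparisons under every alternative run (248 values). Counts of genes called over the whole table moved more, given here in the order TM vs Control, NAC vs Control, TM+NAC vs Control, TM+NAC vs TM, TM+NAC vs NAC, interaction, TM main effect, NAC main effect and any difference. They were 0, 21, 34, 3, 3, 1, 4, 30 and 19 as reported. Without a filter they were 197, 439, 566, 21, 13, 7, 22, 424 and 296, and with DESeq2 19, 38, 77, 19, 8, 9, 18, 56 and 62. With a mean FPKM of at least 5 there were 2 in TM vs Control and 0 in each of the others. With limma the counts that moved by over 1.5 times were 1 (TM vs Control), 2 (NAC vs Control), 6 (TM+NAC vs TM), 6 (TM+NAC vs NAC), 3 (interaction) and 7 (TM main effect). With only the groups compared they were 2 (TM vs Control), 0 (NAC vs Control), 57 (TM+NAC vs Control) and 9 (TM+NAC vs TM), and after GC adjustment 6 (TM+NAC vs TM) and 30 (any difference). Leaving out each library gave 0 to 22, 4 to 41, 21 to 57, 3 to 6, 3 to 4, 0 to 7, 2 to 10, 10 to 59 and 8 to 43. Same-numbered libraries of different groups did not deviate together (median correlation 0.030, range -0.31 to 0.41), and the replicate number as a block gave 10 (NAC vs Control), 0 (interaction), 2 (TM main effect), 15 (NAC main effect) and 12 (any difference). The causes were not tested.

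Small folds changed sign under some settings. With limma on FPKM values plus 1 or 0.1, *Tfam* had log2 folds of 0.015 and 0.017 (TM vs Control), 0.033 and 0.037 (NAC vs Control) and 0.049 and 0.054 (TM+NAC vs Control). *Mfn1* had 0.029 and 0.030 and *Dnm1l* 0.086 and 0.093 in TM+NAC vs Control, and *Mfn2* 0.019 and 0.019 in NAC vs Control. *Tfam* in NAC vs Control was 0.0084 at a mean FPKM of at least 5, *Opa1* in TM+NAC vs Control -0.014 without a filter, and *Dnm1l* in TM+NAC vs Control 0.022 after GC adjustment. The correlation of *Esrra* and *Dnm1l* was 0.0091 after it. Leaving out each library gave, in TM vs Control, -0.0044 to 0.18 (*Ppargc1a*), -0.022 to 0.13 (*Esrra*) and -0.011 to 0.089 (*Mfn1*). In NAC vs Control it gave -0.21 to 0.038 (*Ppargc1a*) and -0.072 to 0.023 (*Tfam*). In TM+NAC vs Control it gave -0.099 to 0.23 (*Ppargc1b*), -0.0033 to 0.062 (*Mfn2*), -0.034 to 0.045 (*Opa1*) and -0.066 to 0.023 (*Dnm1l*). None of these folds passed the test in any setting. *Nrf1* and *Ppargc1b* gave no value under settings that keep the filter. With 5 libraries a group, true folds anywhere inside a printed interval cannot be told apart.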
